A study of Mus musculus with 6 samples.

Results

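The TNF superfamily consists of trimeric ligands, most of them anchored in the membrane, and of receptors with cysteine-rich repeats. Death domain receptors can assemble caspase 8 complexes, TRAF-binding receptors recruit ubiquitin ligases that feed NF-kB and MAP kinases, and decoy receptors bind ligand without a complete signalling tail. In macrophages the family is best known for TNF itself, which the cells make in large amounts when stimulated, and for RANK, the receptor through which RAW264.7 cells can be turned into osteoclast-like cells. The members described here are the protein-coding genes named Tnfsf or Tnfrsf together with Tnf, Lta, Ltb, Ltbr, Cd40, Cd40lg, Cd27, Cd70, Fas, Fasl, Eda, Eda2r, Edar and Ngfr. The rule uses gene names and no measured value, and it gave 46 of 54532 genes in the count table, 19 ligands and 27 receptors. After the filter on low counts 24 of the 46 could be tested.

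The RNA came from flow-sorted RAW264.7 cells, an established line of mouse macrophages recorded as wild type. The 3 lone libraries (A, B and C) came from RAW264.7 cells grown alone, and the 3 cocultured libraries from RAW264.7 cells kept for 48 h with TTJ cells, which lack Tsc2 and come from an angiomyolipoma, a tumour that arose in a mouse model of tuberous sclerosis complex. The comparison asks how Tsc2-null cells bear on macrophage polarization. Each side is a single line, and nothing records whether a group's libraries stem from independent cultures, so every p-value here reflects only library-to-library spread, possibly technical.

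Total counts ran from 14329487 to 17358280 per library. Macrophage markers summed to between 12556 and 12648 CPM (counts adjusted for library size) in the lone libraries and between 13288 and 13648 CPM in coculture, with Cd163 at 0 counts alone and 2 in coculture. Of the 11 that could be tested 6 were higher, 2 lower and 3 not called (21.7% higher and 15.2% lower over all genes tested). The cocultured libraries also held transcripts typical of other cells. All 11 testable genes of a 15-gene renal epithelial list were higher there, and the list summed to between 0 and 0.115 CPM alone and between 374 and 431 CPM in coculture, with Epcam and Cldn7 at 0 counts. Even this sum lay below the count filter in every lone library. The 11 genes thus passed the filter through coculture alone, which fixed their direction. A 15-gene mesenchymal list summed to between 1.90 and 2.13 CPM alone and between 59.7 and 64.5 CPM in coculture, with 3 of 4 testable genes higher and Col3a1, Pdgfra and Thy1 at 0 counts in all libraries. Timp3 on this list had no count alone, so its direction was fixed in the same way. Lymphocyte and NK markers were near 0 (Cd3e, Cd8a, Ms4a1, Ncr1 and Klrb1c, among others, had no count) except Pax5, which went from 0 to 6.06 CPM in coculture and likewise passed the filter only there. A 7-gene dendritic cell list summed to between 2.13 and 2.94 CPM alone and between 2.23 and 3.36 CPM in coculture. Its 1 testable gene was not called, and Flt3, Siglech and Ccr7 had no count. The part of these other transcripts in the results below was not tested, and in bulk RNA a larger number of cells of a type and more RNA per cell cannot be told apart.

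Of the 24 tested members 13 were higher and 3 lower in coculture at an adjusted p under 0.05, and 8 did not pass. Over all 12972 genes tested, 21.7% were called higher and 15.2% lower, 36.9% in either direction. Groups did not overlap, with coculture above, for 15 of the 24 (26.1% of all genes tested) and, with coculture below, for 4 (21% of all genes tested). Ngfr and Tnfrsf21 owed their place among the tested genes to the cocultured libraries alone, which set their direction. Among the 18 members with a mean of at least 1 CPM alone, 10 were higher and 3 lower, against 16.8% and 17.2% of the 11458 genes at that level. The median log2 change of those 18 was 0.31, beside -0.02 for all genes at that level. Among the called members 6 rose 2-fold or more, and none of the 3 that fell reached that size. The 6 included Ngfr, Tnfrsf21 and Tnfrsf9, which reached the filter in 1 lone library. The share of all genes that changed by this much was not computed, so these counts describe the members only.

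**Figure D1:**
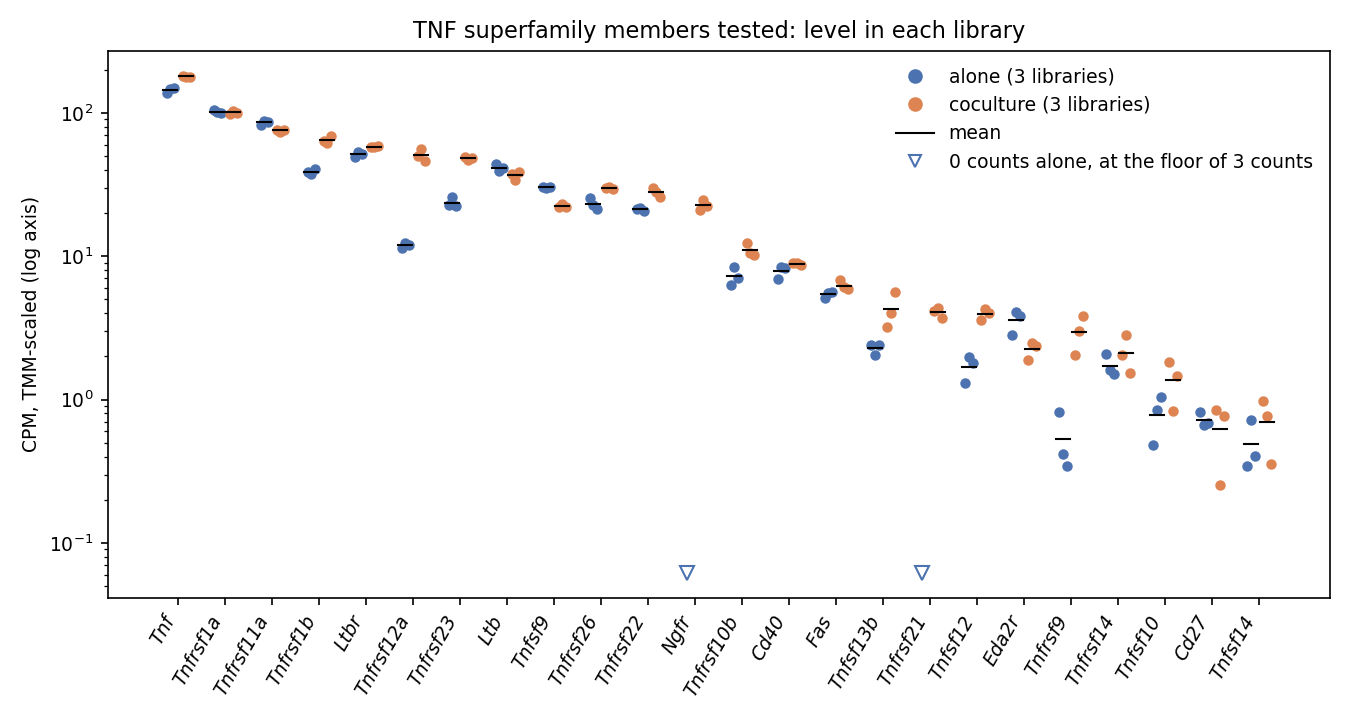
CPM of the 24 tested members in each library on a log axis, ordered by the higher group mean, with blue points for the 3 lone libraries, orange points for the 3 cocultured libraries and black lines for means; open triangles mark genes with 0 counts alone, drawn at the floor of 3 counts over the lone group (0.0618 CPM). Tnf was the most abundant member in both groups, and the groups of Tnfrsf12a, Tnfrsf23, Tnfrsf9, Ngfr and Tnfrsf21 lie apart, the last of these and Ngfr with no count alone.

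Among ligands, Tnf, the founding inflammatory cytokine of the family, was the most abundant and rose modestly in coculture. The length-scaled level of Tnf was 87.8 ± 3.73 FPKM (fragments per kilobase of gene length, scaled to library size, mean ± SD, n = 3) alone and 109.6 ± 0.863 FPKM in coculture. Tnf stood at 137, 147 and 149 CPM in the lone libraries and at 182, 179 and 179 CPM in the cocultured ones. The cocultured libraries were all above the lone ones, and the spread among them was small beside the difference (1.25-fold, log2 0.32, SE 0.0463, adjusted p = 4.09e-06). Ltb, the membrane-bound lymphotoxin chain that binds the lymphotoxin beta receptor, lies beside Tnf on chromosome 17 and did not pass the test. Its level was 43.8, 39.4 and 41.1 CPM alone and 37.3, 34.0 and 38.6 CPM in coculture. The groups of Ltb did not overlap, but the difference missed the threshold (log2 -0.18, SE 0.0734, adjusted p = 0.0599). Lta, the soluble lymphotoxin chain encoded next to Tnf on its other side, was below the filter, with 4, 3 and 7 counts in the lone libraries against 4, 19 and 9 in the cocultured ones.

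The Tnf and Ltb genes lie within the same lymphotoxin cluster, at 35199381 to 35202007 (minus strand) and 35194439 to 35196320 (plus strand) of chromosome 17 on mm10, and their ratio can be read within a library without any scaling. The FPKM ratio of Tnf to Ltb was 2.90, 3.44 and 3.35 alone and 4.51, 4.88 and 4.29 in coculture, with no overlap. An exact two-sided permutation test gave p = 0.1, the smallest that 3 against 3 can give, and 0.1 after adjustment over the 7 ratios computed. All 7 pairs were chosen after the values were seen, so their separation was largely set by that choice. Because Tnf rose and its neighbour Ltb did not pass the test, the 250 bases before each start are shown, from RefSeq on GRCm38.p6, written 5′ to 3′ in the sense of the gene. The window of Tnfrsf1b, a TNF receptor described further on, is shown because it matched a motif beside its start. Capitals mark matches to any of 3 motifs searched on both strands, namely the kappaB decamer, the AP-1 heptamer TGANTCA and the interferon response element, which reads GAAA, any 2 bases and GAAA.
Tnf, chr17:35202008-35202257, minus strand: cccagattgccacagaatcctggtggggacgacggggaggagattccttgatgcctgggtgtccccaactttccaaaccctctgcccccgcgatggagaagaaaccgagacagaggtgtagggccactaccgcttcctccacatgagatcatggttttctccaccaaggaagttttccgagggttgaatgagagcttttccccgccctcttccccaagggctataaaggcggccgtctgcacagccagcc
Ltb, chr17:35194257-35194506, plus strand: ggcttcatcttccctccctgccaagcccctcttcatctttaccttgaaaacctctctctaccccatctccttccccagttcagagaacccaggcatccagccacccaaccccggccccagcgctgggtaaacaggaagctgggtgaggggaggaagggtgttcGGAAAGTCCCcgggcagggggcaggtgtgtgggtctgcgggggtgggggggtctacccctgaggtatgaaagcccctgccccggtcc
Tnfrsf1b, chr4:145246871-145247120, minus strand: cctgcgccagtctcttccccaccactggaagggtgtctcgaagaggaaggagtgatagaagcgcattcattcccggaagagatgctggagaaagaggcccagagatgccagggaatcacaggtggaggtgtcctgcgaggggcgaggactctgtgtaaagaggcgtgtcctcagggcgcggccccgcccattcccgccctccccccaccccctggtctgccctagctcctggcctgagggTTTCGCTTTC
The Ltb window held 1 kappaB decamer, GGGACTTTCC on the other strand, from base 87 to base 78 before the start. This RefSeq start lies 68 bases inside the gene as deposited. The Tnf window held no match to the 3 motifs as spelled, which says only that these letters are not in this window. In the Tnfrsf1b window GAAAGCGAAA lay on the other strand from base 10 to base 1 before the start. Windows were found for 36 of the 46 members and for 18 of the 24 tested. The decamer was present in 2 of the 36 windows and in 7.78% of 16478 windows of protein-coding genes, the AP-1 heptamer in 4 of 36 and 6.14%, and the interferon element in 3 of 36 and 3.1%. Matches are descriptions of sequence and not evidence of binding.

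Tnfsf9 encodes the ligand of the costimulatory receptor 4-1BB and was the only ligand that fell. It was at 30.5, 29.9 and 30.2 CPM alone and at 21.9, 22.98 and 22.0 CPM in coculture. All cocultured libraries were below all lone ones (1.35-fold lower, log2 -0.44, SE 0.0818, adjusted p = 0.000116). Gm11110, which overlaps exons of Tnfsf9 on the opposite strand, was at 7.31 ± 1.80 and 6.82 ± 1.12 CPM (adjusted p = 0.722).

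Tnfsf12, which encodes TWEAK, a ligand known from tissue repair, rose from 1.31, 1.98 and 1.79 CPM to 3.57, 4.28 and 3.996 CPM. The groups were apart (2.32-fold, log2 1.21, SE 0.252, adjusted p = 0.00039). Its exons overlap those of Tnfsfm13, a read-through of Tnfsf12 and Tnfsf13 on the same strand, so the split of reads among these 3 genes is uncertain. Counts of Tnfsfm13 were 6, 2 and 0 in the lone libraries and 9, 3 and 7 in the cocultured ones, and Tnfsf13, which encodes the B cell factor APRIL, had 10, 1 and 5 and then 6, 4 and 11. Tnfsf13b, the gene of the B cell survival factor BAFF, rose from 2.41, 2.04 and 2.42 CPM to 3.221, 4.02 and 5.58 CPM (1.88-fold, log2 0.91, SE 0.244, adjusted p = 0.00436). Coculture replicate C was the highest, and without it the log2 change of Tnfsf13b was 0.67 with an adjusted p of 0.0635. Tnfsf10, which encodes the death ligand TRAIL, stood at 0.786 ± 0.282 and 1.37 ± 0.502 CPM (adjusted p = 0.136) and Tnfsf14, the gene of LIGHT, at 0.489 ± 0.202 and 0.700 ± 0.319 CPM (adjusted p = 0.501), with overlapping groups in both cases.

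**Figure D2:**
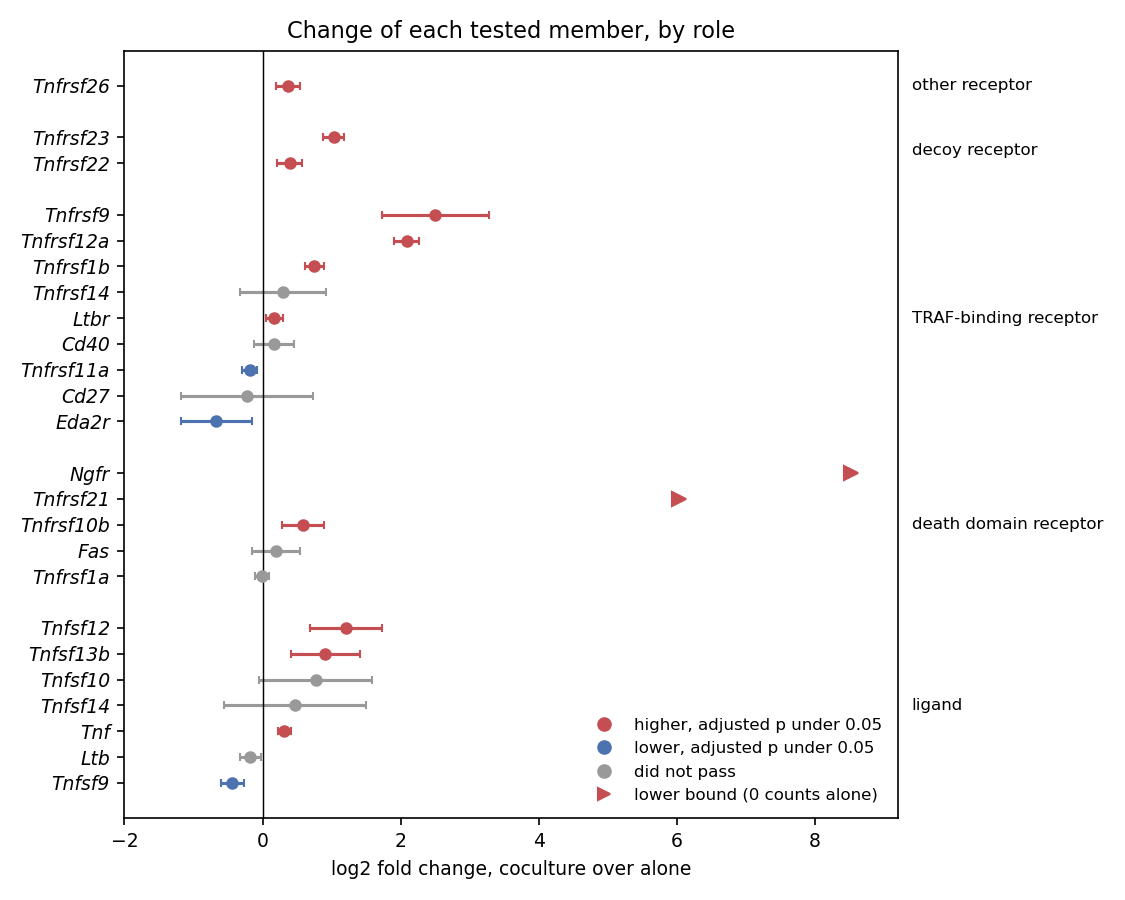
Log2 fold change of coculture over alone for the 24 tested members, grouped by role, with 95% intervals of the edgeR fit as bars; red points were higher and blue points lower at an adjusted p under 0.05, grey points did not pass, and triangles are lower bounds for the genes with 0 counts alone. The 3 members that fell changed by less than 2-fold, whereas Tnfrsf12a and Tnfrsf9 rose by more than 4-fold.

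Of the TNF receptors, Tnfrsf1b rose and Tnfrsf1a did not pass the test. Tnfrsf1a encodes TNFR1, the death domain receptor found on most cells, and had 104, 102 and 99.5 CPM alone and 98.6, 104 and 100.2 CPM in coculture. Its groups overlapped (log2 -0.01, 95% interval -0.11 to 0.09, adjusted p = 0.885). Tnfrsf1b encodes TNFR2, a TRAF-binding receptor that prefers membrane-bound TNF, and rose from 38.6, 37.2 and 40.4 CPM to 64.0, 61.7 and 69.4 CPM. The cocultured libraries were all higher (1.68-fold, log2 0.75, SE 0.0666, adjusted p = 1.06e-09). Per length, TNFR1 transcripts were still the more abundant ones, with 38.8 ± 1.02 FPKM for Tnfrsf1a against 17 ± 1.03 FPKM for Tnfrsf1b in coculture. The FPKM ratio of Tnfrsf1b to Tnfrsf1a within a library was 0.252, 0.249 and 0.276 alone and 0.441, 0.404 and 0.470 in coculture, without overlap (exact permutation p = 0.1, the smallest possible).

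Tnfrsf12a, which encodes the TWEAK receptor Fn14, had the largest rise among members with at least 1 CPM alone. It was at 11.3, 12.4 and 12.0 CPM alone and at 49.7, 56.0 and 46.4 CPM in coculture. The lowest cocultured library was thus far above the highest lone one (4.25-fold, log2 2.09, SE 0.0901, adjusted p = 7.55e-16). Both ends of this pair were higher in coculture, and the FPKM ratio of Tnfrsf12a to Tnfsf12 was 5.66 ± 1.01 alone and 10.1 ± 0.922 in coculture. Fn14 is also expressed by many epithelial and mesenchymal cells, whose markers rose in the same libraries as given above, and their part in this rise was not tested.

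Tnfrsf9, the gene of 4-1BB, rose while the gene of its ligand fell. Its counts were 12, 7 and 6 in the lone and 29, 47 and 65 in the cocultured libraries, or 0.825, 0.420 and 0.346 CPM and then 2.03, 3 and 3.82 CPM. These low counts did not overlap between the groups (5.67-fold, log2 2.50, SE 0.376, adjusted p = 6.43e-06). The ligand transcript remained the more abundant one per length, since Tnfsf9 was at 17.3 ± 0.483 FPKM in coculture and Tnfrsf9 at 1.08 ± 0.329 FPKM. A single lone library reached the count filter for Tnfrsf9, so its direction was nearly fixed by the filter.

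**Figure D3:**
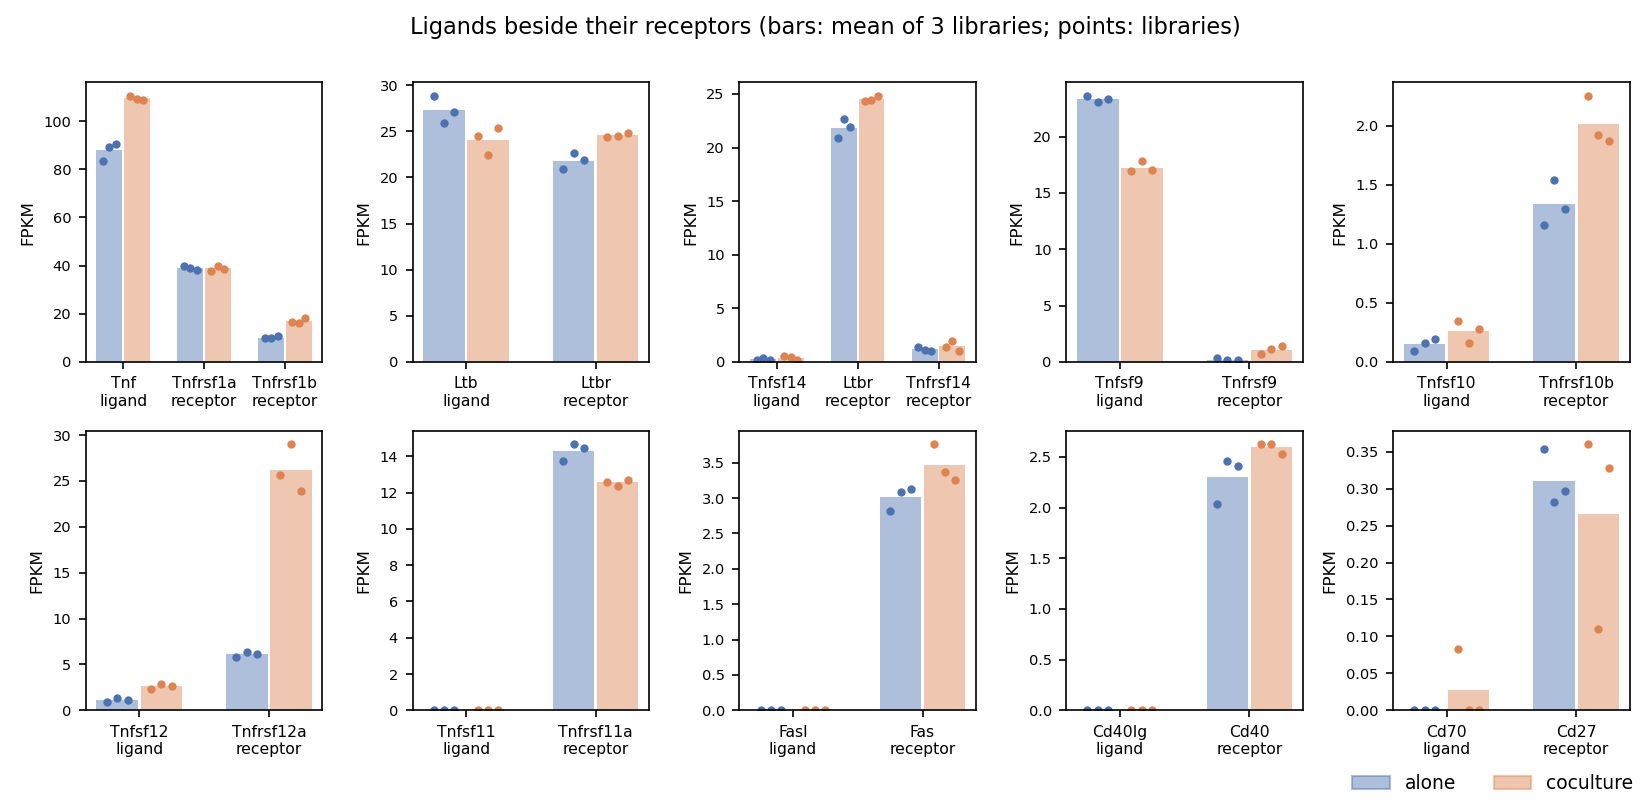
FPKM of ligands beside their receptors, 1 panel per ligand, with bars for the mean of 3 libraries and points for libraries (blue alone, orange coculture); each panel has its own linear axis from 0. Tnf exceeded both of its receptors, Tnfsf9 exceeded Tnfrsf9, and the ligands Tnfsf11, Fasl and Cd40lg were at 0 beside receptors that were expressed.

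Tnfrsf11a encodes RANK, the osteoclast receptor, and was lower in coculture. It stood at 82.4, 88.1 and 86.6 CPM alone and at 75.6, 74.0 and 76.2 CPM in coculture. The groups were apart, but the difference was small (1.14-fold lower, log2 -0.19, SE 0.0528, adjusted p = 0.0065). Its ligand gene Tnfsf11 (RANKL) had 0 counts in all 6 libraries, which allows up to 0.0618 CPM alone and 0.0639 CPM in coculture (3 counts over a group, counting error only), and the same held for the RANKL decoy Tnfrsf11b (osteoprotegerin). Of 11 RANK target genes 7 could be tested, and 2 were higher and 3 lower (21.7% and 15.2% of all genes tested). The acid phosphatase gene Acp5 rose 2.24-fold to 29.3 ± 2.44 CPM. Nfatc1, the transcription factor downstream of RANK, fell from 115 ± 2.16 to 97.4 ± 1.39 CPM, the protease gene Ctsk from 8.78 ± 1.42 to 5.72 ± 0.269 CPM, and Atp6v0d2, a proton pump subunit, from 20.4 ± 1.43 to 13.0 ± 1.12 CPM.

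Ltbr, the lymphotoxin beta receptor gene, was at 49.3, 53.5 and 51.6 CPM alone and at 57.6, 57.6 and 58.6 CPM in coculture (1.12-fold, log2 0.17, SE 0.0613, adjusted p = 0.0317). This call was lost without coculture replicate A, B or C and without lone replicate A or C (adjusted p of 0.0613 to 0.0961). Eda2r, which encodes the receptor of an ectodysplasin isoform, fell from 2.82, 4.08 and 3.80 CPM to 1.89, 2.49 and 2.35 CPM (1.59-fold lower, log2 -0.67, SE 0.247, adjusted p = 0.0357). It lost the call without lone replicate B or C and without coculture replicate A or C (adjusted p of 0.0642 to 0.136) and in the DESeq2 Wald test (0.0672). Cd40, the receptor of the T cell ligand CD154, had 6.95, 8.39 and 8.24 CPM alone and 8.96, 8.94 and 8.64 CPM in coculture, and did not pass (log2 0.17, 95% interval -0.13 to 0.46, adjusted p = 0.392). Tnfrsf14, the gene of the LIGHT receptor HVEM, was at 1.73 ± 0.298 and 2.12 ± 0.645 CPM (adjusted p = 0.480), and Cd27, a lymphocyte costimulatory receptor, at 0.725 ± 0.0879 and 0.620 ± 0.318 CPM (adjusted p = 0.753).

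The TRAIL receptors on chromosomes 14 and 7 rose together. Tnfrsf10b, the only death receptor for TRAIL in the mouse, went from 6.33, 8.45 and 7.09 CPM to 12.3, 10.5 and 10.2 CPM (log2 0.59, SE 0.145, adjusted p = 0.00222). Tnfrsf23 and Tnfrsf22, which encode mouse decoy receptors for TRAIL, and Tnfrsf26, a related receptor of unsettled function, lie in tandem on chromosome 7 between 143607659 and 143685872, all on the minus strand. Tnfrsf23 rose from 22.8, 25.7 and 22.3 CPM to 49.0, 47.1 and 48.5 CPM (2.04-fold, log2 1.03, SE 0.0759, adjusted p = 3.02e-11). Its neighbours also rose. Tnfrsf22 went from 21.3, 21.8 and 20.7 CPM to 30.0, 27.9 and 26.0 CPM (1.31-fold, log2 0.39, adjusted p = 0.000879), and Tnfrsf26 from 25.3, 22.8 and 21.4 CPM to 29.7, 30.4 and 29.6 CPM (1.29-fold, log2 0.37, adjusted p = 0.00116). Within a library the FPKM ratio of Tnfrsf23 to Tnfrsf22 was 1.14, 1.25 and 1.14 alone and 1.73, 1.80 and 1.99 in coculture (exact permutation p = 0.1, the smallest possible). These paralogs resemble each other, so reads may be shared or lost among them. E230032D23Rik, which overlaps exons of Tnfrsf23 and Tnfrsf26 on the opposite strand, had 8 counts over the lone and 25 over the cocultured libraries.

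**Figure D4:**
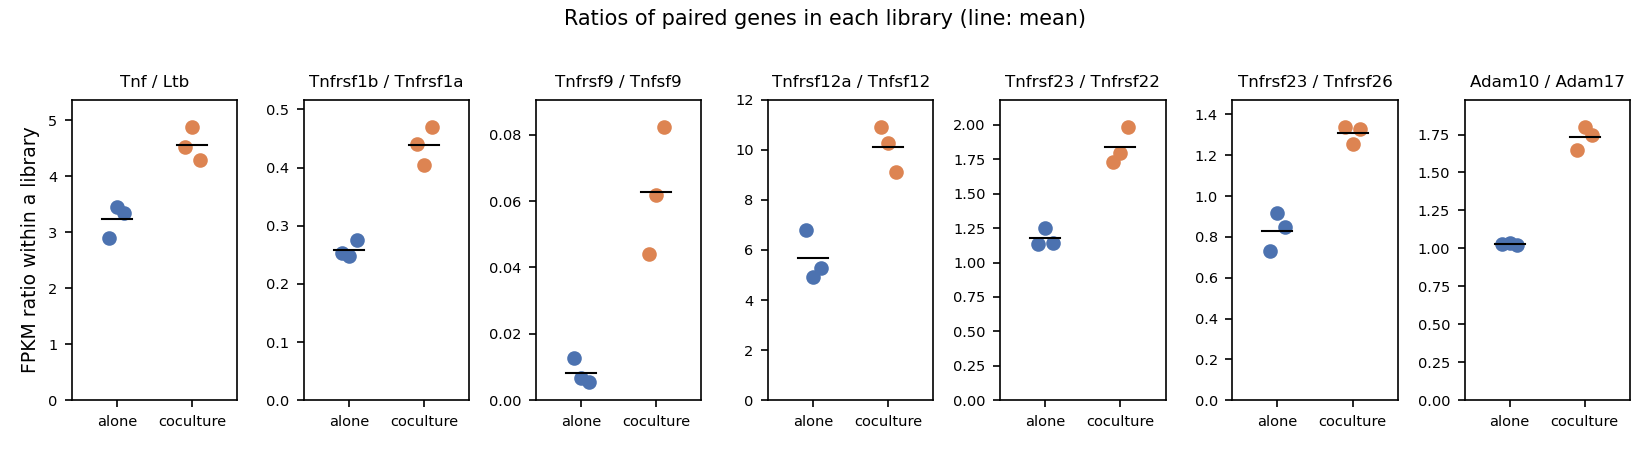
FPKM ratio of 7 gene pairs within each library, with blue points for the 3 lone libraries, orange points for the 3 cocultured libraries, black lines for means and a linear axis from 0 in each panel. In all 7 panels every cocultured library lies above every lone one, and the exact permutation p of each is 0.1, the smallest possible. The pairs were chosen after the values were seen, with the gene that rose more as numerator. The separation therefore describes these pairs and tests nothing further.

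Among the other death domain receptors, Fas did not pass the test and Fasl was not detected. Fas had 5.09, 5.58 and 5.65 CPM alone and 6.79, 6.06 and 5.88 CPM in coculture, so the groups did not overlap (log2 0.19, 95% interval -0.15 to 0.54, adjusted p = 0.394), and Fasl had 0 counts in all libraries. Ngfr, which encodes the p75 neurotrophin receptor, and Tnfrsf21, which encodes death receptor 6, had no count in any lone library. Ngfr had 300, 384 and 383 counts in coculture, or 21.0, 24.5 and 22.5 CPM. Taking 3 counts over the lone group as the floor, Ngfr was at least 368-fold higher. Tnfrsf21 had 59, 68 and 63 counts in coculture, or 4.13, 4.34 and 3.70 CPM, which made it at least 65.5-fold higher. They were among 688 genes of the table with no count alone and at least 10 in coculture, against 8 with the reverse, and the epithelial and mesenchymal markers named above rose from near 0 in the same libraries. Whether the Ngfr and Tnfrsf21 transcripts came from RAW264.7 cells was not tested.

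The 22 members too low to test had at most 19 counts in any library. Tnfsf11, Fasl, Cd40lg, Edar, Tnfrsf19 and Tnfrsf11b had 0 counts in all 6 libraries. Besides Lta, Tnfsf13 and Tnfsfm13, the highest were the T cell costimulatory receptor Tnfrsf4 (OX40) with 30 counts over the lone and 20 over the cocultured libraries, Tnfrsf8 (CD30) with 18 and 17, Tnfsf18 (GITR ligand) with 18 and 13 and the B cell receptor Tnfrsf17 (BCMA) with 10 and 8. The remaining 9, Tnfsf4, Tnfsf8, Tnfsf15, Cd70, Eda, Tnfrsf13b, Tnfrsf13c, Tnfrsf18 and Tnfrsf25, had at most 6 counts over the libraries of a group. The BAFF receptors Tnfrsf13b, Tnfrsf13c and Tnfrsf17 were thus near or at the limit of detection in the libraries in which Tnfsf13b rose.

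Of 83 genes on 5 lists of adaptors, death signalling, ligand shedding, TNF response and RANK targets 75 were tested, and 28 were higher and 11 lower, with a median log2 change of -0.0033. These counts, and those of each list, stand beside 21.7% higher and 15.2% lower over all genes tested. Among the 28 were genes, such as Timp3 and Cxcl1, that passed the filter through coculture alone, which fixed their direction. In the refit on genes with at least 1 CPM alone, 24 of 71 pathway genes were higher and 11 lower. Over all 11460 genes of that refit, 2023 were higher and 1642 lower. Of 27 adaptor genes 6 were higher and 3 lower, shares near those of all genes. Traf4 rose 2.30-fold to 22.9 ± 1.31 CPM, Traf5 1.63-fold to 6.67 ± 0.360 CPM and Map3k14, the NF-kB inducing kinase of the noncanonical branch, 1.44-fold to 27.7 ± 0.866 CPM. Traf1, an adaptor induced by NF-kB, fell from 36.6 ± 1.97 to 23.5 ± 3.06 CPM, Birc3, a ubiquitin ligase of TNF receptor complexes, from 58.8 ± 1.41 to 47.8 ± 4.09 CPM, and Rbck1, a subunit of the linear ubiquitin ligase, from 129 ± 2.55 to 113 ± 1.49 CPM. In the death signalling list 5 of 11 tested genes were higher and 0 lower, beside the same 21.7% and 15.2% of all genes. Mlkl, the executioner of necroptosis, rose 2.12-fold to 67.0 ± 2.67 CPM, and the adaptor gene Fadd rose 1.29-fold.

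Of 9 genes that act on the release of ligands from the membrane, as proteases, carriers or inhibitors, 6 were higher and 1 lower (21.7% and 15.2% of all genes tested). The 1 that fell was Adam17, the protease that sheds TNF and its receptors, from 344 ± 8.02 to 255 ± 13.0 CPM (1.35-fold lower, log2 -0.43, SE 0.0440, adjusted p = 1.10e-08). Rhbdf1 and Rhbdf2, whose products carry ADAM17 to the surface, rose 1.82-fold to 14.6 ± 2.39 CPM and 1.29-fold to 120.5 ± 3.92 CPM. Timp3, the inhibitor of ADAM17, had no count alone and reached 17.9 ± 2.45 CPM in coculture, which is at least 291-fold higher. It is also on the mesenchymal list, and its direction was fixed by the filter. The related protease gene Adam10, chosen after its values were seen, rose from 244 ± 3.88 to 303 ± 6.05 CPM, and the FPKM ratio of Adam10 to Adam17 went from 1.03 ± 0.00804 to 1.73 ± 0.0770.

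Among 21 tested TNF response genes 9 were higher and 4 lower (21.7% and 15.2% of all genes tested). Of the 9, Cxcl1 and Bcl2a1a passed the filter through coculture alone, which fixed their direction. The chemokine gene Ccl2 rose 4.86-fold to 220.9 ± 15.2 CPM and the growth factor gene Csf1 35.0-fold to 63.0 ± 5.04 CPM, whereas Cxcl1, with no count alone, reached 10.2 ± 2.05 CPM, at least 164-fold higher. Csf1 was at only 1.79 ± 0.112 CPM alone. Whether the Csf1 and Cxcl1 transcripts in coculture came from RAW264.7 cells was not tested. Cd83, a marker of activated antigen-presenting cells, fell 2.96-fold, Cxcl2, a neutrophil chemoattractant, 1.67-fold and Relb, an NF-kB subunit, 1.21-fold.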

How the data were processed

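Poly-A RNA of 6 libraries was analysed. The authors deposited raw counts per gene and FPKM values, per the file headers. The submitters' processing notes list edgeR 3.22.5, featureCounts 1.5.0-p3, mm10, HISAT2 2.0.5 and DESeq2 1.20.0 without roles; strand setting: not given in the sources used here.

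Counts were fitted over the whole table with edgeR 4.0.16 (R 4.3.3, quasi-likelihood F test, TMM scaling, filterByExpr by group with a minimum count of 10, 12972 genes) on group alone, with Benjamini-Hochberg adjustment over all genes tested and 0.05 as threshold. SE is the absolute log2 change over the square root of F. Levels of different genes are compared only in FPKM. On simulated data for coculture against alone (12181 genes) 85.1% of the genes given a log2 change of 0.5 and 89.6% of those given 1 were called, and 5.7% of calls were unchanged genes. The simulation changed few genes, all with at least 1 CPM alone, and gave every gene the same spread between replicates. Its shares may not hold for low genes, or where as many genes change as in the data. Within each group the libraries differed beyond sampling noise (chi-square per degree of freedom 3.10 to 4.82).

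The members and lists were chosen with earlier results of these data known, and the gene pairs for ratios and the promoter windows after the values were seen. Every tested member is named, and members past the threshold, with Tnf, Tnfrsf1a, Fas, Cd40, Ltbr and the RANK pair, have each library's value. From each pathway list up to 3 genes that rose and 3 that fell most, reaching 5 CPM in the group where they were higher, are named, and Ltb's library values and Adam10 were added after the values were seen. Some genes that this rule or the marker lists hold are not reported here. Promoters are from RefSeq (GRCm38.p6), taking the window nearest to the deposited gene start, which for Tnfrsf9 was 5593 bases away. For 27 of the 36 windows the 50 bases after the start lay in a transcript of the gene. Exon overlaps come from GENCODE M21. The alternatives were DESeq2 size factors, upper quartile scaling, other filters, a block for the replicate letter, leaving out each library in turn, DESeq2 1.42.0, limma-voom and limma 3.58.1 on log2(FPKM + 1) and log2(FPKM + 0.1), where fold changes of low genes are understated.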

Additional observations from a re-analysis of the deposited data

How the results depend on the processing

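Over 393 refits of the 24 tested members, 375 kept their direction and side of the threshold. The 13 higher members ranged from 10 (genes with at least 1 CPM alone, which leaves out Ngfr, Tnfrsf21 and Tnfrsf9, and the FPKM fit restricted to genes averaging 1 FPKM or more) to 13, and from 11 to 13 with a library left out. The 3 lower members ranged from 2 to 4, and from 2 to 3 with a library left out. Pathway genes ranged from 24 to 28 higher and from 9 to 13 lower. Calls were lost for Ltbr, Eda2r and Tnfsf13b as given above, and for Ltbr also with no filter on low counts (adjusted p = 0.0694). Ltb passed with upper quartile scaling (adjusted p = 0.0477) and without lone replicate B (adjusted p = 0.0425). The sign of Tnfrsf1a, which did not pass, turned to a log2 change of 0.0050 among genes with at least 1 CPM alone, 0.0065 without lone replicate A and 0.0011 without coculture replicate A (range with a library left out -0.035 to 0.0065). That of Cd27, which did not pass either, turned to 0.14 without coculture replicate B (range -0.48 to 0.14). In both cases the cause was not tested.

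With the replicate letter as a replicate block, 13 members were higher and 3 lower, and 28 pathway genes were higher and 12 lower. Libraries of the same letter hardly deviated together (r = 0.0034, 0.021 and 0.039 across genes, which are not independent), so the letters were not taken as pairs. Between different letters r ran from -0.034 to 0.014, so the B and C values were the highest, though small. The 22 untested members were below the count filter, 6 of them at 0 counts throughout, and folds on the FPKM scale for Tnfrsf9, Ngfr and Tnfrsf21 were smaller because of the pseudocount.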
